A study of Homo sapiens with 2 samples.

Results

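The genes described here encode the enzymes, carriers and regulators that take glucose carbon through glycolysis, lactate exchange, the entry of pyruvate into mitochondria, the pentose phosphate pathway and the TCA cycle. They were taken by name from a list of 58 gene symbols and matched to the table through Entrez gene numbers. Of the 58, 57 had a row among the 16021 rows of the table, and PDK4 was not analysed here. The filter for counts and medians, an average of at least 1 FPKM across the pair of libraries, was passed by 56 of the 57. The remaining gene, SLC16A3, was listed at 0.46 FPKM in both libraries. FPKM is the number of sequenced fragments scaled to transcript length and to library size, so levels of different genes can be set beside each other within a library.

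RNA came from cultures of HGC-27, a human gastric cancer line, that had been given a lentivirus with an shRNA against the RNA helicase DDX5, or one with a non-targeting shRNA. Both cultures therefore carried a lentiviral vector and had been through puromycin, which was added after 48 h, and collection followed 1 week later. There was 1 library per group, so no p-value, standard error or replicate spread could be given, and every difference below is between 2 libraries. The values are averages over a culture, so a difference in the proportion of cells and a difference in RNA per cell cannot be told apart.

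Glycolysis splits glucose into pyruvate in the cytosol. Its upper steps take up, phosphorylate and cleave the sugar, and its lower steps recover ATP and NADH. Pyruvate is then reduced to lactate and exported, or carried into mitochondria, where the pyruvate dehydrogenase complex turns it into acetyl-CoA for the TCA cycle. Pyruvate dehydrogenase kinases shut that complex off by phosphorylation. The pentose phosphate pathway branches off at glucose 6-phosphate and yields NADPH and the ribose of nucleotides. Many cancer cells release lactate even when oxygen is present, and LDHA, PKM, SLC2A1 and PDK1 are genes often discussed in that setting.

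The knockdown was checked first. DDX5 stood at 50.78 FPKM in DDX5 shRNA cells and 170.5 FPKM in non-targeting cells, which is 29.8% of the control level. The depth is not stated in the table, but the step size of small values among short genes put it at about 14940000 fragments for DDX5 shRNA cells and about 15300000 for non-targeting cells. From those figures and the longest coding transcript of each gene, each of the 56 genes past the filter was estimated to rest on 54 fragments or more in either library. Total FPKM was 594757 in DDX5 shRNA cells and 549129 in non-targeting cells. Rescaling both to the same total lowered the median log2 ratio of all genes by 0.10. Values at the same total are therefore added for some genes and groups. Every pathway gene past the filter whose sign changed under a scaling is named near the end. Markers of gastric epithelium, the labelled origin, were low or absent: the gastric marker CLDN18 was at 0.06 and 0.04 FPKM in DDX5 shRNA and non-targeting cells, and 4 other gastric lineage markers had no row among those used here. Of 5 epithelial markers, 4 had a row, with a summed level of 1.93 FPKM in DDX5 shRNA cells and 5.74 FPKM in non-targeting cells, and KRT8 made up most of that sum. The 3 mesenchymal markers were uneven: VIM stood at 1270.59 FPKM in DDX5 shRNA cells and 1583.62 FPKM in non-targeting cells, FN1 at 5.99 and 4.76 FPKM in DDX5 shRNA and non-targeting cells, and CDH2 at 0 and 0.07 FPKM in them. Of the 3 fibroblast markers, COL1A1 and DCN stood at 260.5 and 140.68 FPKM in DDX5 shRNA cells and at 285.04 and 68.13 FPKM in non-targeting cells, whereas PDGFRB was near 0, at 0.28 FPKM in DDX5 shRNA cells and 0.56 FPKM in non-targeting cells. The part of these markers in the values below was not tested.

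Within 1.5-fold of the control level lay 44 of the 56 genes. Of all genes past the filter, 13.1% were at least that much higher and 10.1% at least that much lower. On the scale of FPKM + 1, 3 of the 56 genes were at least 2-fold apart. PCK2, the mitochondrial phosphoenolpyruvate carboxykinase, and PDK1, a pyruvate dehydrogenase kinase, were higher in DDX5 shRNA cells, and PKM, the pyruvate kinase that ends glycolysis, was lower. That is 5.36% of the 56, against 6.45% of 11413 genes past the filter. By direction, the background was 4.19% of all genes for 2-fold higher and 2.26% for 2-fold lower, or 478 and 258 genes. This surplus of higher genes was absent at the same total FPKM, where 374 genes (3.28%) were higher and 374 lower, while the pathway genes past 2-fold were the same 3. The number of pathway genes past 2-fold was thus no larger a share than among all genes. All log2 ratios are of FPKM + 1, DDX5 shRNA over non-targeting shRNA, a scale that understates differences of weakly expressed genes.

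At the lower bar of 1.5-fold, which was chosen after the values were seen, 4 genes were higher and 8 lower. This is 7.14% higher, against 13.1% of all genes, and 14.3% lower, against 10.1% of all genes. The 8 lower genes were PKM, DLAT, LDHA, TKT, IDH3A, CS, PFKP and RPIA, and the 4 higher ones were PCK2, PDK1, PGLS and SLC2A3. At the same total FPKM, 3 genes were higher (5.36%, against 10.1% of all genes) and 10 lower (17.9%, against 14.1%), with ME2 and PGAM1 joining the lower genes and SLC2A3 leaving the higher ones. The median log2 ratio of the 56 genes was -0.08, against 0.024 over all genes, and 31 of the 56 (55.4%) were below 0, against 47.8% of all genes. At the same total FPKM, 39 of the 56 were below 0, against 56.7% of all genes, and the median was -0.19, against -0.077 over all genes.

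**Figure D1:**
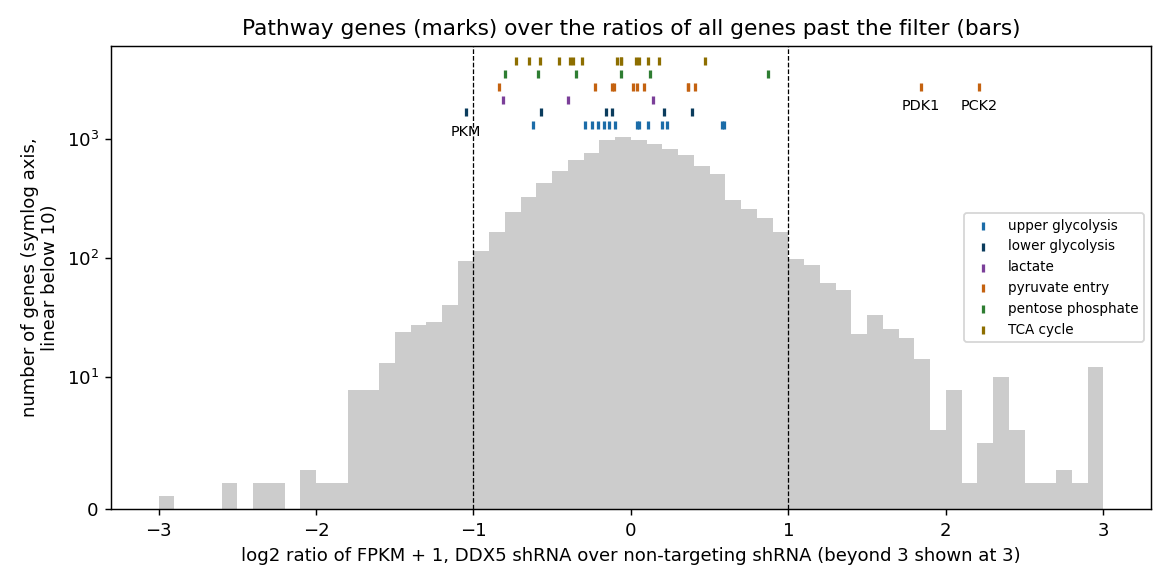
Log2 ratios of FPKM + 1, DDX5 shRNA over non-targeting shRNA. Bars count all 11413 genes past the filter per 0.1 of log2 ratio on a symlog axis, and coloured marks give the 56 pathway genes by step group (their height carries no value). PCK2 and PDK1 lie to the right of the 2-fold line and PKM just past the left one, while the other marks fall within the bulk of the bars.

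The start regions of the 3 genes past 2-fold are shown because they carry the largest differences, each as 250 bases before and 50 after an annotated start, 5′ to 3′ on the gene's strand (RefSeq, GRCh38.p14, a later build than the hg19 of the deposited values). RefSeq windows were found for 51 of the 56 genes. Capitals mark matches on either strand to ACGTG, the core of hypoxia response elements, to CACGTG, an E-box read by MYC-type factors, which contains ACGTG, and to TGATGNAA, a composite element of ATF4 and C/EBP factors.
PDK1, chr2:172555840-172556139, plus strand: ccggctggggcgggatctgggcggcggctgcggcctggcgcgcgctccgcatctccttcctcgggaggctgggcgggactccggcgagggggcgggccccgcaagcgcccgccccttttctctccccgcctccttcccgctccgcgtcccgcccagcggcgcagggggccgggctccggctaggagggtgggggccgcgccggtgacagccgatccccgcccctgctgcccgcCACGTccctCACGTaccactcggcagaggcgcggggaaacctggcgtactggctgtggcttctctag
PCK2, chr14:24094061-24094360, plus strand: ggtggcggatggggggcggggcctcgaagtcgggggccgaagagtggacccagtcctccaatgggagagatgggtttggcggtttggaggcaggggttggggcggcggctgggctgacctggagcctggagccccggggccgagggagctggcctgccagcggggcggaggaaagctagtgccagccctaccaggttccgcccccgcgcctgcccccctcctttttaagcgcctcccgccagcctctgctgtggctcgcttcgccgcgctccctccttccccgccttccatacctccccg
PKM, chr15:72231141-72231440, minus strand: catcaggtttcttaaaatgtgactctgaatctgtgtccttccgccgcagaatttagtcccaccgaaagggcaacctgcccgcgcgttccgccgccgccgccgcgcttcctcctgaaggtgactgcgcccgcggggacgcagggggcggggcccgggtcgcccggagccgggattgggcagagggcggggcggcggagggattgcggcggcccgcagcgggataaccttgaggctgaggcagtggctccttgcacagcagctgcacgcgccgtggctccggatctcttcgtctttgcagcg
The PDK1 window held ACGTG at 2 places, both read on the opposite strand, beginning 17 and 8 bases before the start site. A second annotated PDK1 window further upstream, and the PCK2 and PKM windows, held none of the 3 motifs. Among genes past the filter with a window, ACGTG occurred in 33.3% of 9279, CACGTG in 13.1% and TGATGNAA in 2.66%. Among the 51 pathway genes, the counts were 21 (41.2%) with ACGTG, 8 with CACGTG and 1, HK1, with TGATGNAA. A gene was counted if any of its windows held the letters. Some genes, HK1 among them, had several windows, and the shares were not adjusted for that. A match describes letters in these windows, and binding was not measured.

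Upper glycolysis held genes on either side of the control, with unequal differences among isozymes. Of its 14 genes, none was 2-fold apart, 7 had a log2 ratio above 0 and 7 below (4 and 10 at the same total), and the median was -0.03. Of the glucose transporters, SLC2A1, the widespread basal carrier, stood at 23.48 FPKM in DDX5 shRNA cells and 19.9 FPKM in non-targeting cells, a log2 ratio of 0.23. SLC2A3, a high-affinity carrier, stood at 7.51 FPKM in DDX5 shRNA cells and 4.64 FPKM in non-targeting cells, a log2 ratio of 0.59. SLC2A3 shares 22.7% of its 50-base windows with SLC2A14, which was listed at 0.03 and 0 FPKM in the same libraries, and the sum of both rows had a log2 ratio of 0.60. Both carriers were thus higher in DDX5 shRNA cells, also at the same total (0.12 and 0.49), and neither reached 2-fold.

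Hexokinase transcripts were nearly level, with a sum for HK1 and HK2 of 29.43 FPKM in DDX5 shRNA cells and 30.24 FPKM in non-targeting cells. HK2, the inducible hexokinase common in tumours, stood at 20.9 FPKM in DDX5 shRNA cells and 20.2 FPKM in non-targeting cells, a log2 ratio of 0.05 that became -0.06 at the same total. HK1, the housekeeping form, stood at 8.53 FPKM in DDX5 shRNA cells and 10.04 FPKM in non-targeting cells. HK2 thereby made up 71.0% of summed hexokinase FPKM in DDX5 shRNA cells and 66.8% in non-targeting cells. GPI, which converts glucose 6-phosphate to fructose 6-phosphate, stood at 178.05 and 190.49 FPKM in DDX5 shRNA and non-targeting cells.

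Phosphofructokinase, the committed step, showed an uneven pattern among its 3 isozyme genes. PFKP, the platelet form, stood at 40.84 FPKM in DDX5 shRNA cells and 63.37 FPKM in non-targeting cells, a log2 ratio of -0.62. PFKM, the muscle form, stood at 75.06 FPKM in DDX5 shRNA cells and 65.16 FPKM in non-targeting cells, and PFKL, the liver form, at 35.17 FPKM in DDX5 shRNA cells and 38.76 FPKM in non-targeting cells. The sum of the 3 was 151.07 and 167.29 FPKM in DDX5 shRNA and non-targeting cells, a ratio of 0.903 without rescaling. PFKP held 27.0% of that sum in DDX5 shRNA cells and 37.9% in non-targeting cells, and PFKM held 49.7% in DDX5 shRNA cells and 39.0% in non-targeting cells. The difference between isozymes has no replicate and was not tested.

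The bifunctional PFKFB enzymes set the level of fructose 2,6-bisphosphate, the main activator of phosphofructokinase. PFKFB3, a form in which kinase activity dominates, stood at 7.91 FPKM in DDX5 shRNA cells and 9.86 FPKM in non-targeting cells, and PFKFB4 at 2.42 FPKM in DDX5 shRNA cells and 1.29 FPKM in non-targeting cells. PFKFB4 rested on an estimated 124 and 68 fragments in DDX5 shRNA and non-targeting cells, and its fold of 1.88 had an exact binomial 95% interval of 1.38 to 2.55. Intervals of this kind cover counting error only, use estimated fragment numbers and say nothing of the spread between cultures. PFKFB2 was nearly level at 2.33 FPKM in DDX5 shRNA cells and 2.25 FPKM in non-targeting cells.

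Transcripts for the cleavage of the sugar were abundant. ALDOA, the main aldolase here with 97.0% and 97.5% of the ALDOA and ALDOC sum in DDX5 shRNA and non-targeting cells, stood at 665.79 and 747.54 FPKM in them, and ALDOC at 20.74 and 19.18 FPKM in DDX5 shRNA and non-targeting cells. TPI1, which interconverts the triose phosphates, stood at 498.14 FPKM in DDX5 shRNA cells and 590.89 FPKM in non-targeting cells, a log2 ratio of -0.25.

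**Figure D2:**
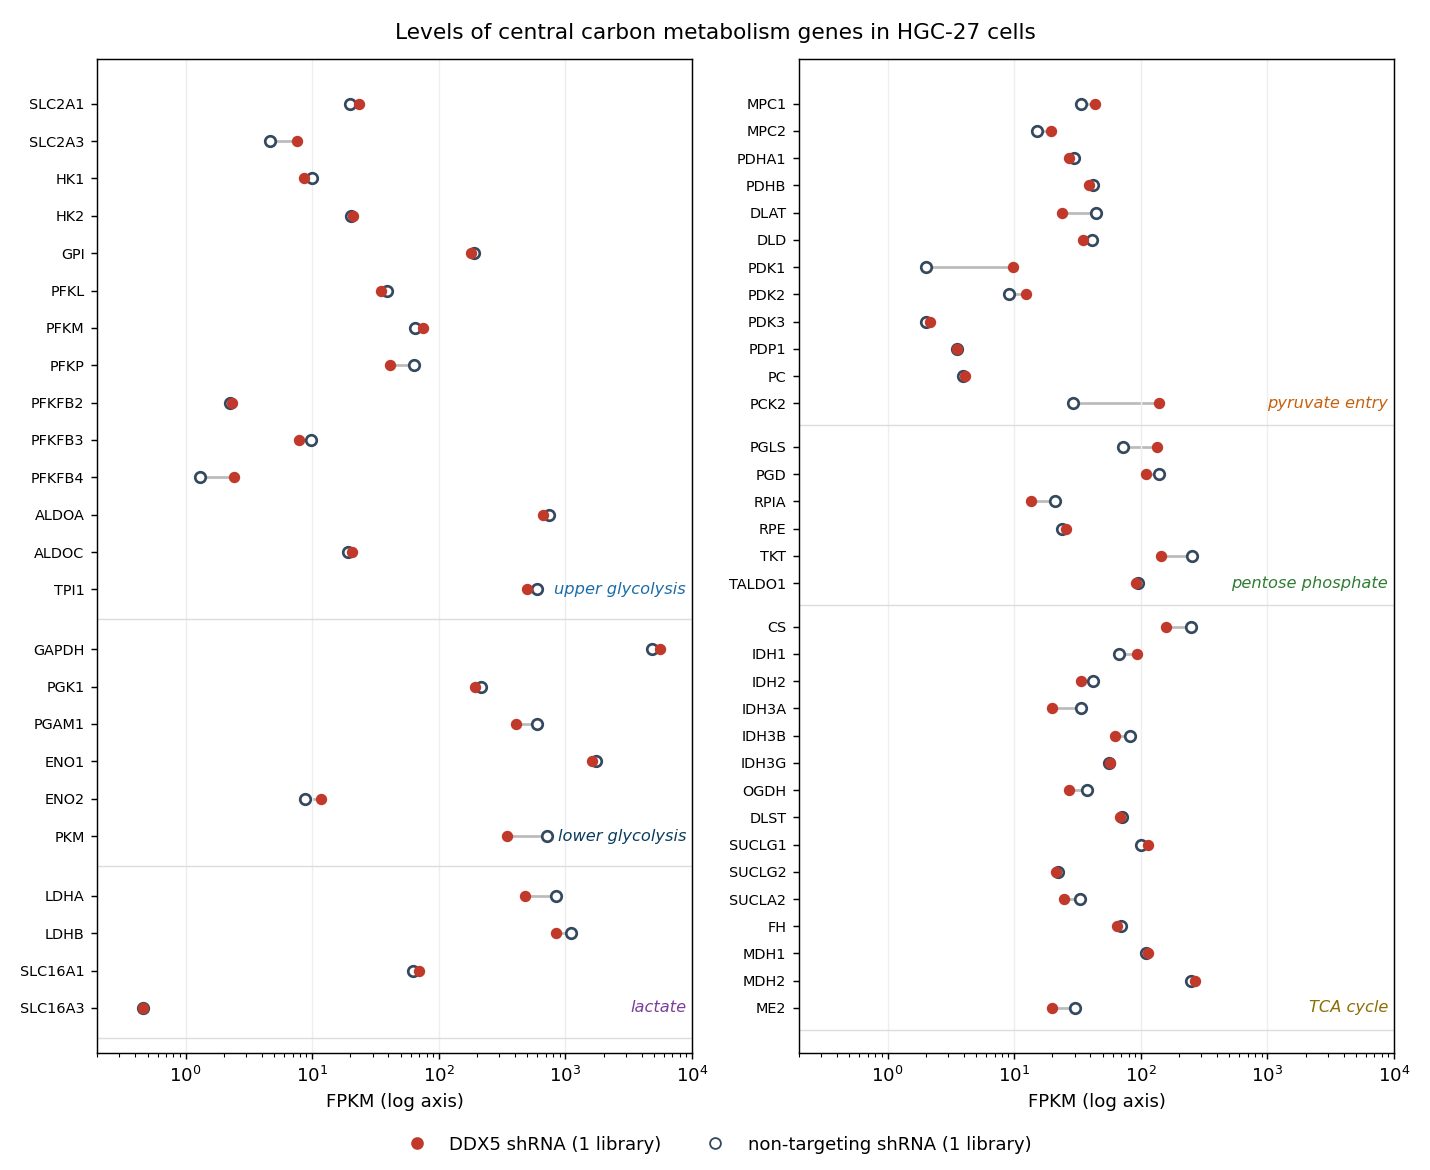
FPKM of the 57 genes with a row, on a log axis, with filled red points for the DDX5 shRNA library and open points for the non-targeting library, grouped by pathway step. The points of most genes nearly coincide, and the widest gaps are those of PDK1 (9.75 and 2.01 FPKM in DDX5 shRNA and non-targeting cells) and PCK2 (138.35 and 29.17 FPKM in DDX5 shRNA and non-targeting cells).

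Among the listed genes of lower glycolysis, that of the last enzyme differed most. PKM stood at 345.98 FPKM in DDX5 shRNA cells and 715.81 FPKM in non-targeting cells, a log2 ratio of -1.05 and a fold of 0.483 (exact binomial 95% interval 0.473 to 0.493, counting error only). It was lower under each of 3 scalings (-1.16 at the same total). PKM encodes both the M1 and the M2 forms of pyruvate kinase through mutually exclusive exons, and the table gives their sum, so the balance of the forms was not measured. Its rank from the lowest ratio among the 11413 genes was 217.

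The listed genes of the steps before pyruvate kinase were less far apart. GAPDH, the most abundant transcript of the pathway, stood at 5612.79 FPKM in DDX5 shRNA cells and 4863.63 FPKM in non-targeting cells, a log2 ratio of 0.21 that was 0.09 at the same total. PGAM1, the main phosphoglycerate mutase, stood at 404.57 FPKM in DDX5 shRNA cells and 599.32 FPKM in non-targeting cells, a log2 ratio of -0.57. Its near copy PGAM4 was listed at 0.05 and 0.1 FPKM in DDX5 shRNA and non-targeting cells, so adding that row could not move the ratio. PGAM1 shares 43.0% of its 50-base windows with any other gene and 18.4% with genes that have a row. The remainder of this shared sequence could not be checked. PGK1, the first enzyme of the pathway to recover ATP, stood at 192.92 and 215.74 FPKM in DDX5 shRNA and non-targeting cells. Enolase was carried almost wholly by ENO1, at 1613.45 FPKM in DDX5 shRNA cells and 1757.33 FPKM in non-targeting cells, while the neuronal form ENO2 stood at 11.79 and 8.76 FPKM in DDX5 shRNA and non-targeting cells. Of the 6 genes of this group, 2 were above 0 and 4 below, with a median of -0.14. The log2 ratios of GAPDH, at the head of this stretch, and PKM, at its end, lay on opposite sides of 0 under each of 3 other scalings too.

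Lactate dehydrogenase genes were both lower. LDHA, whose subunit favours lactate formation, stood at 479.27 FPKM in DDX5 shRNA cells and 841.91 FPKM in non-targeting cells, a log2 ratio of -0.81. LDHB, whose subunit favours lactate use, stood at 839.78 FPKM in DDX5 shRNA cells and 1110.57 FPKM in non-targeting cells, a log2 ratio of -0.40. The sum was 1319.05 and 1952.48 FPKM in DDX5 shRNA and non-targeting cells, and the LDHA portion of it was 36.3% and 43.1%. Both genes were lower at the same total as well, at -0.93 and -0.52. An annotated gene model on the same strand, without a row in the table, overlaps 56.2% of the LDHB exon bases.

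The lactate transporters did not follow the dehydrogenases. SLC16A1, the proton-coupled carrier MCT1, stood at 69.41 FPKM in DDX5 shRNA cells and 62.96 FPKM in non-targeting cells, a log2 ratio of 0.14. SLC16A3, the export carrier MCT4, was at 0.46 FPKM in both, on an estimated 32 and 33 fragments in DDX5 shRNA and non-targeting cells. A difference in SLC16A3 was not detectable at this depth, with a 95% counting interval of 0.591 to 1.67 around a fold of 1. SLC16A1 therefore held 99.3% of the sum of both transporters in either library.

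At the entry of pyruvate into mitochondria, PDK1 and PCK2 were the genes past 2-fold, and DLAT, a core subunit, had the lowest log2 ratio. PDK1 stood at 9.75 FPKM in DDX5 shRNA cells and 2.01 FPKM in non-targeting cells, a log2 ratio of 1.84 and a fold of 4.85 (95% counting interval 4.37 to 5.39), on an estimated 2046 and 432 fragments. These fragment numbers take the longest coding transcript, of 14193 bases. If shorter PDK1 transcripts were the ones expressed, the numbers would be smaller and the interval wider. PDK1 ranked 68 from the highest ratio among all 11413 genes. PDK2, the broadly expressed kinase, stood at 12.37 FPKM in DDX5 shRNA cells and 9.07 FPKM in non-targeting cells, a log2 ratio of 0.41. PDK3 was at 2.18 FPKM in DDX5 shRNA cells and 2 FPKM in non-targeting cells, with a fold of 1.09 and a counting interval of 0.746 to 1.62, so no difference was detectable at this depth. The kinase sum was 24.3 FPKM in DDX5 shRNA cells and 13.08 FPKM in non-targeting cells, and the PDK1 portion of it was 40.1% and 15.4%. PDK2 remained the largest single row. Its exons overlap those of SAMD14 on the opposite strand over 54.6% of their bases, and SAMD14 stood at 6.02 FPKM in DDX5 shRNA cells and 2.42 FPKM in non-targeting cells. Whether counting used strand is not stated, so reads of PDK2 and SAMD14 cannot be told apart over that stretch.

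The counterpart of the kinases was level: PDP1, the phosphatase that reactivates the complex, stood at 3.56 FPKM in DDX5 shRNA cells and 3.53 FPKM in non-targeting cells. Of the complex itself, DLAT, the acetyltransferase core, stood at 24.07 FPKM in DDX5 shRNA cells and 43.98 FPKM in non-targeting cells, a log2 ratio of -0.84. The other subunits were nearer to the control: PDHA1 at 26.97 and 29.5 FPKM, PDHB at 38.99 and 42.28 FPKM, and DLD at 34.75 and 40.84 FPKM in DDX5 shRNA and non-targeting cells. DLAT made up 19.3% of the summed FPKM of the 4 subunits in DDX5 shRNA cells and 28.1% in non-targeting cells. The pyruvate carrier, which needs both of its subunits, had equal log2 ratios of 0.36 for MPC1 (43.7 and 33.72 FPKM) and MPC2 (19.64 and 15.12 FPKM) in DDX5 shRNA and non-targeting cells. Both ratios were 0.25 at the same total, and before that rescaling the upper quartile of all genes was 0.35. MPC1 held 69.0% of the carrier sum in both libraries.

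The enzymes that link pyruvate, oxaloacetate and phosphoenolpyruvate had unlike ratios. PCK2, which links TCA cycle carbon back to phosphoenolpyruvate, stood at 138.35 FPKM in DDX5 shRNA cells and 29.17 FPKM in non-targeting cells, a log2 ratio of 2.21 and a fold of 4.74 (95% counting interval 4.44 to 5.08). It was the highest log2 ratio of the 56 genes and ranked 42 among all genes. PC, pyruvate carboxylase, which makes oxaloacetate from pyruvate, stood at 4.11 FPKM in DDX5 shRNA cells and 3.96 FPKM in non-targeting cells. Over the 12 measured genes of this group, 8 were above 0 and 4 below (6 and 6 at the same total), with a median of 0.06.

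**Figure D3:**
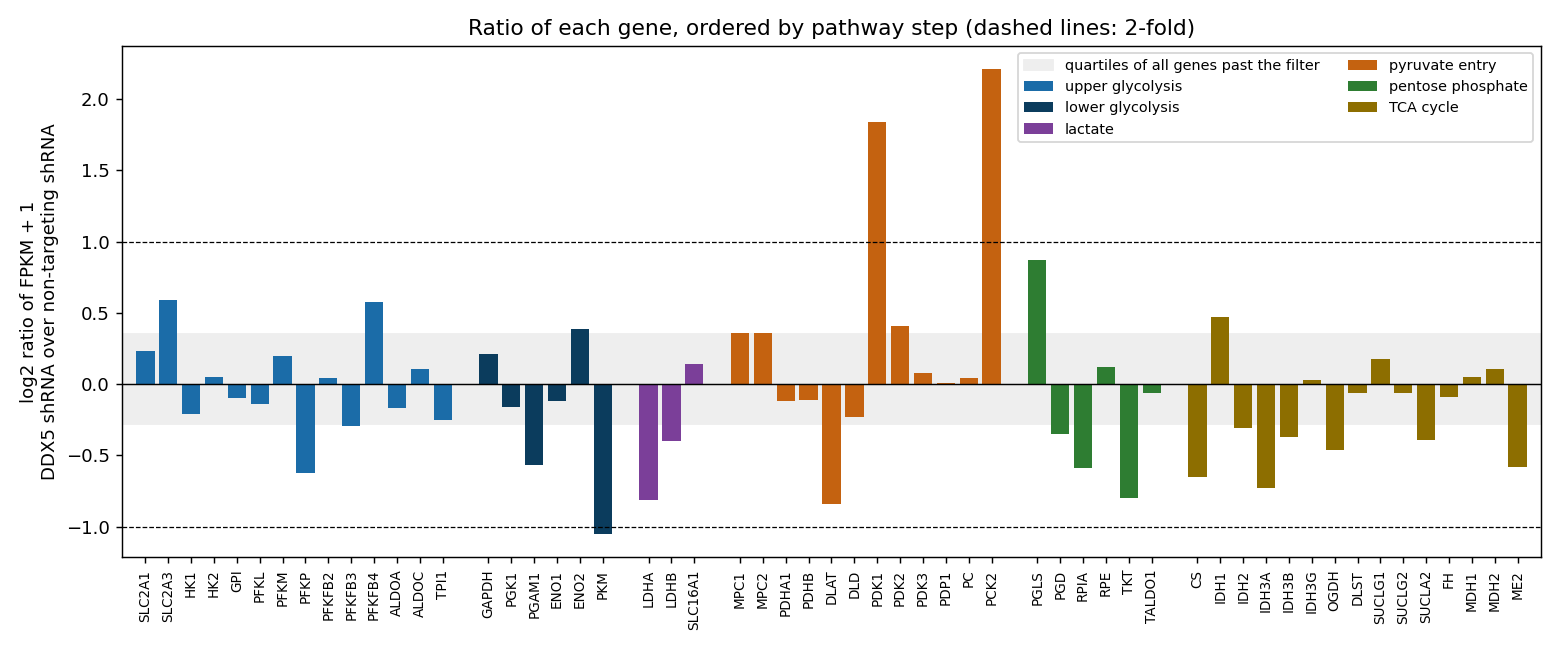
Log2 ratio of FPKM + 1, DDX5 shRNA over non-targeting shRNA, for the 56 genes past the filter, ordered by step and coloured by group. The grey band spans the quartiles of all genes, -0.28 to 0.35, and holds 29 of the 56, with 17 below it and 10 above it.

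The pentose phosphate pathway held genes on both sides of the control. PGLS, the lactonase of the oxidative branch, stood at 133.17 FPKM in DDX5 shRNA cells and 72.19 FPKM in non-targeting cells, a log2 ratio of 0.87. PGD, the next dehydrogenase and a source of NADPH, stood at 109.13 FPKM in DDX5 shRNA cells and 139.28 FPKM in non-targeting cells, a log2 ratio of -0.35. These consecutive oxidative steps therefore lay on opposite sides of 0 under each scaling. An antisense transcript without a row in the table overlaps 25.4% of the PGLS exon bases.

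In the non-oxidative branch, which exchanges carbon between pentoses and glycolytic intermediates, TKT and RPIA were the lower genes. TKT, transketolase, stood at 144.73 FPKM in DDX5 shRNA cells and 251.87 FPKM in non-targeting cells, a log2 ratio of -0.80. RPIA, which makes ribose 5-phosphate, stood at 13.57 FPKM in DDX5 shRNA cells and 20.97 FPKM in non-targeting cells, a log2 ratio of -0.59. TALDO1, transaldolase, which works beside transketolase, was nearly level at 91.86 and 95.9 FPKM in DDX5 shRNA and non-targeting cells, and RPE, the epimerase, stood at 25.87 and 23.75 FPKM in them. Exons of KANSL1L overlap 23.9% of the RPE exon bases on the opposite strand. KANSL1L was listed at 3.34 and 2.78 FPKM in DDX5 shRNA and non-targeting cells. Over the 6 genes, the median was -0.21, with 2 above 0 and 4 below.

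No TCA cycle gene was 2-fold apart, and the lowest ratios were those of IDH3A and CS. The group also holds the cytosolic IDH1 and MDH1 and the malic enzyme ME2, which are not steps of the cycle itself. Of its 15 genes, 5 were above 0 and 10 below, with a median of -0.09. The range was -0.73 to 0.47, and the upper end was that of IDH1. At the same total, 2 were above 0 and 13 below, where 56.7% of all genes were below 0, against 47.8% of all genes before that rescaling. CS, citrate synthase, stood at 157.94 FPKM in DDX5 shRNA cells and 247.95 FPKM in non-targeting cells, a log2 ratio of -0.65. IDH3A, the catalytic subunit of the NAD-dependent isocitrate dehydrogenase, stood at 19.99 FPKM in DDX5 shRNA cells and 33.89 FPKM in non-targeting cells, a log2 ratio of -0.73. Its partners were nearer to the control, IDH3B at 62.73 and 81.63 FPKM and IDH3G at 57.22 and 56.08 FPKM in DDX5 shRNA and non-targeting cells. IDH3A held 14.3% of the summed FPKM of the 3 subunits in DDX5 shRNA cells and 19.7% in non-targeting cells. ACSBG1, whose exons overlap 60.3% of the IDH3A exon bases on the opposite strand, was listed at 0.07 and 0.09 FPKM in the same libraries. Exons of SSR4 overlap 15.2% of the IDH3G exon bases, also on the opposite strand, and their part in the IDH3G values was not tested.

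OGDH, the first enzyme of the oxoglutarate dehydrogenase complex, stood at 27.15 FPKM in DDX5 shRNA cells and 37.67 FPKM in non-targeting cells, a log2 ratio of -0.46, whereas its core DLST was nearly level at 68.55 and 71.39 FPKM in DDX5 shRNA and non-targeting cells. The NADP-dependent isocitrate dehydrogenases went apart. IDH1, the cytosolic enzyme, stood at 92.76 FPKM in DDX5 shRNA cells and 66.78 FPKM in non-targeting cells, and IDH2, the mitochondrial one, at 33.96 FPKM in DDX5 shRNA cells and 42.23 FPKM in non-targeting cells. Their log2 ratios were 0.47 and -0.31, and IDH1 held 73.2% of the pair in DDX5 shRNA cells and 61.3% in non-targeting cells.

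Later steps of the cycle, given here with ME2, were mixed. SUCLA2, SDHA and ME2 lay below the lower quartile of all genes and the others between the quartiles. Succinyl-CoA ligase had its shared subunit SUCLG1 at 114.44 FPKM in DDX5 shRNA cells and 101.19 FPKM in non-targeting cells. Its GTP-forming subunit SUCLG2 stood at 21.35 and 22.33 FPKM in DDX5 shRNA and non-targeting cells, and its ATP-forming subunit SUCLA2 at 24.87 and 32.94 FPKM in them, a log2 ratio of -0.39. Of the 4 succinate dehydrogenase subunit genes, which belong to the further pathway genes and were added after their values were seen, SDHA, the flavoprotein subunit, stood at 45.73 FPKM in DDX5 shRNA cells and 63.8 FPKM in non-targeting cells, a log2 ratio of -0.47. The log2 ratios of SDHB, SDHC and SDHD were -0.18, 0.01 and -0.22. FH, fumarase, stood at 65.41 and 69.82 FPKM in DDX5 shRNA and non-targeting cells. MDH1 and MDH2, the cytosolic and mitochondrial malate dehydrogenases, had log2 ratios of 0.05 and 0.11, which were -0.06 and -0.01 at the same total. ME2, a mitochondrial malic enzyme that makes pyruvate from malate, stood at 19.92 FPKM in DDX5 shRNA cells and 30.24 FPKM in non-targeting cells, a log2 ratio of -0.58.

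**Figure D4:**
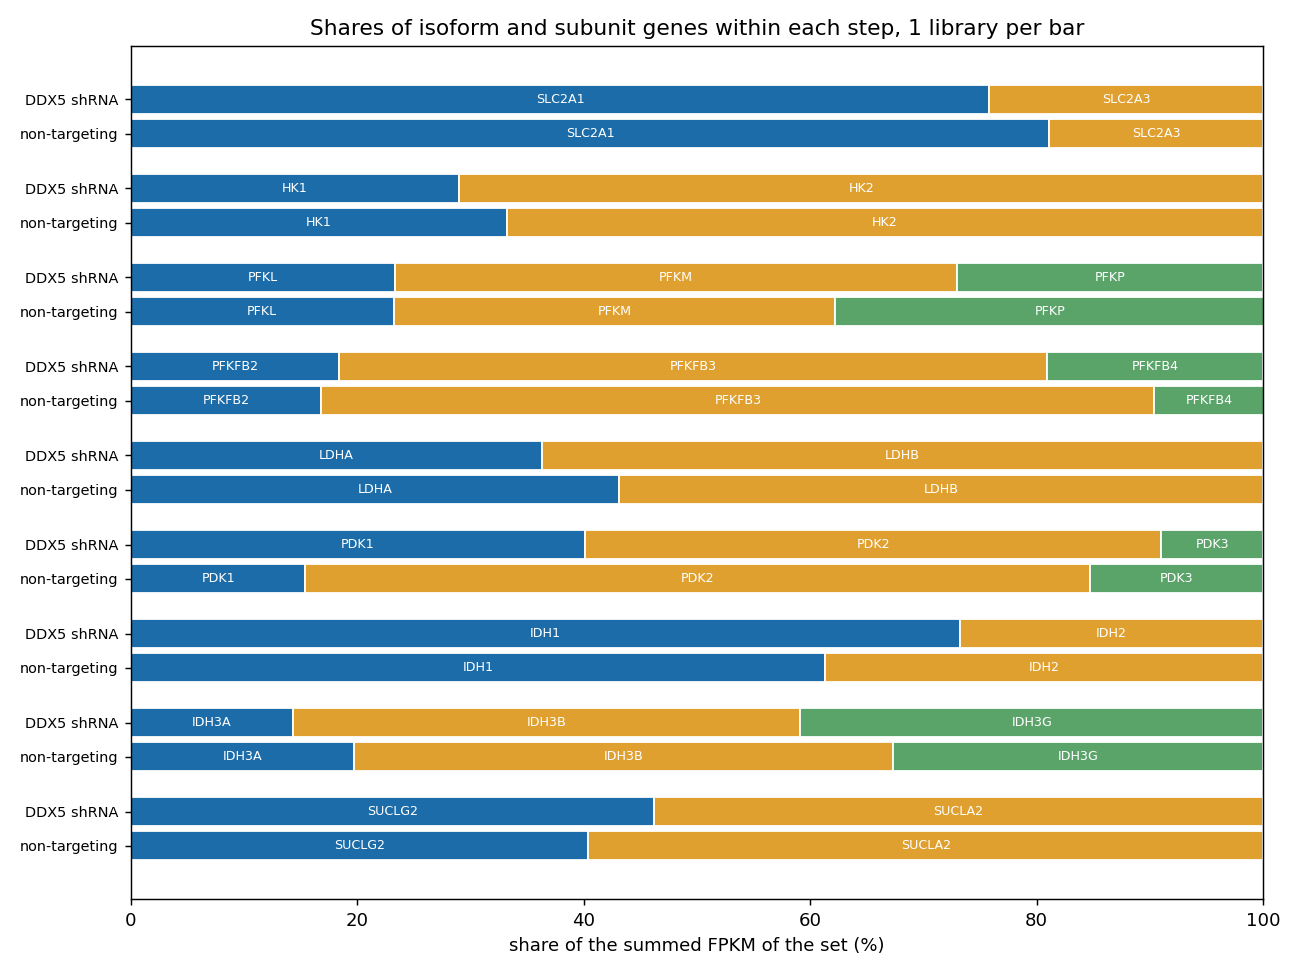
Percentage of summed FPKM held by each isoform or subunit gene within 9 sets, with 1 bar for the DDX5 shRNA library above 1 bar for the non-targeting library. The PDK1 segment is the one that differs most, at 40.1% in DDX5 shRNA cells and 15.4% in non-targeting cells, followed among genes other than the kinases by IDH1 and IDH2, which mirror each other, and then by PFKFB3, PFKP and PFKM.

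Of 52 further genes of the same pathways, 45 had a row and 30 passed the filter. Among these 30, 2 were 2-fold or more above the control and 0 were as far below it, which is 6.67%, against 6.45% of all genes past 2-fold in either direction, and the median was -0.03. Both were muscle-type isozymes of lower glycolysis. ENO3, muscle enolase, stood at 10.08 FPKM in DDX5 shRNA cells and 3.42 FPKM in non-targeting cells, a log2 ratio of 1.33. PGAM2, muscle phosphoglycerate mutase, stood at 5.43 FPKM in DDX5 shRNA cells and 2.06 FPKM in non-targeting cells, a log2 ratio of 1.07 that was 0.97 at the same total. They made up 0.616% and 1.32% of the summed enolase and mutase FPKM in DDX5 shRNA cells, and 0.193% and 0.343% in non-targeting cells. An antisense transcript without a row overlaps 59.2% of the PGAM2 exon bases. PGM2, which converts pentose 1-phosphates, had a log2 ratio of -0.76, H6PD, the hexose 6-phosphate dehydrogenase of the endoplasmic reticulum, one of 0.73, and PGM1 and ME1, phosphoglucomutase and cytosolic malic enzyme, one of 0.57 each.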

How the data were processed

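RNA was sequenced from 1 HGC-27 culture with a DDX5 shRNA and 1 with a non-targeting shRNA. The authors deposited 1 table of FPKM, with 1 column per library, per the file headers. The submitters' processing notes list RSEM 1.2.8, Bowtie2, HISAT and hg19, with no role or order. The sources used here state no annotation, strand setting or filter. RSEM estimates how reads that match several genes are split, which can move values between near copies.

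Columns were assigned by sample title, and 15289 rows were named through RefSeq (GRCh38.p14). The members and lists were chosen with earlier results of these data known. Counts and medians used genes averaging at least 1 FPKM. Genes outside the list were named if they were 2-fold apart past the filter or among the 6 largest absolute ratios of genes averaging at least 5 FPKM, and 1 such gene is not reported here. Overlapping genes and markers were named for stated checks. No test was possible with single libraries.

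Depth was estimated from 119 (DDX5 shRNA) and 122 (non-targeting) short genes with 1 annotated GENCODE v29 transcript: at the best-fitting step, 64.7% and 72.1% of them fell within 0.15 of a whole fragment number, with lengths shortened by 150 bases. The step and the shortening were fitted to these same genes. Fragment numbers used the longest coding transcript and are approximate, and they are too high where shorter transcripts were expressed. Counting intervals are exact Clopper-Pearson intervals. Shared sequence was counted in 50-base windows taken every 10 bases and is not given above for every gene. For example, TPI1 shared 21.5%, SDHA 22.1% and ALDOA 59.6% of windows with other gene models, but none with other genes that have a row. The calculations were tested on simulated data. The software was scipy 1.17.1, pandas 2.3.3 and numpy 2.4.6 under Python 3.11.15, with figures from matplotlib 3.10.9. Other settings tried were rescaling to the same total, centring on either the median or a 30% trimmed mean, a pseudocount of 0.1 or 5 in place of 1, a filter at 5 FPKM or none, and adding the row of a near copy.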

Additional observations from a re-analysis of the deposited data

How the results depend on the processing

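PCK2 and PDK1 were the genes at least 2-fold higher and PKM the gene at least 2-fold lower under each of the 7 alternatives, and no called gene changed sign. Under the alternatives, the 56 genes past the filter had 283 values. Of these, 282 moved by less than the robust SD of log2 ratios of genes at a like level. That SD is taken across genes between the 2 libraries, so it also holds differences between the cultures and is not a replicate spread. Shifts from rescaling are small beside it, so this count could hardly have been lower and does not measure robustness. The value that moved further was that of PDK1, whose log2 ratio was 1.07 with a pseudocount of 5. Rescaling to the same total brought the median of all listed genes to -0.19. A filter at 5 FPKM brought the median of the pyruvate entry group to 0.36. Of the further pathway genes, 0 were at least 2-fold higher with a pseudocount of 5, 1 at the same total and 1 with the filter at 5 FPKM. Over all genes, 743 were at least 2-fold higher and 390 lower with a pseudocount of 0.1, and 194 and 102 with a pseudocount of 5, and 374 and 374 at the same total FPKM. The cause was not tested. The signs of 8 of the 56 genes changed under at least 1 of the 3 scalings: HK2, PFKFB2, ALDOC, PDP1, PC, IDH3G, MDH1 and MDH2. No paired analysis was possible because each group held 1 library. Depth limits PDK3, PFKFB4 and SLC16A3 most.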

Other observations

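The order of transcript levels within the pathway was led by GAPDH, ENO1 and LDHB, in that order, in both libraries. Behind them the order differed: ALDOA, TPI1, LDHA, PGAM1 and PKM took ranks 4 to 8 in DDX5 shRNA cells, whereas LDHA, ALDOA, PKM, PGAM1 and TPI1 took them in non-targeting cells. PKM ranked 8 in DDX5 shRNA cells and 6 in non-targeting cells, and LDHA 6 and 4. Levels here are FPKM, which are per transcript length.

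The 17 genes of glycolytic enzymes and lactate dehydrogenase summed to 11043.77 FPKM in DDX5 shRNA cells and 11858.7 FPKM in non-targeting cells, or 1.86% and 2.16% of total FPKM. Without GAPDH, which alone made up about as much as the other 16 in DDX5 shRNA cells, the sums were 5430.98 and 6995.07 FPKM, a ratio of 0.776. Across step groups, summed FPKM had a ratio of 0.89 in upper glycolysis, 0.689 for lactate, 1.40 for pyruvate entry, 0.858 for the pentose phosphate pathway and 0.916 for the TCA cycle. The lower glycolysis sums were 8181.5 FPKM in DDX5 shRNA cells and 8160.59 FPKM in non-targeting cells. As shares of total FPKM, these were 1.38% and 1.49%, so the order was reversed. GAPDH contributed 5612.79 and 4863.63 FPKM to these sums in DDX5 shRNA and non-targeting cells. None of the group sums was rescaled to the same total. Within pyruvate entry, PCK2 contributed 138.35 of 358.44 FPKM in DDX5 shRNA cells and 29.17 of 255.18 FPKM in non-targeting cells.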
